A study of Mus musculus with 36 samples.

Results

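The chambers of the fetal mouse heart were compared at E16.5 (E, embryonic day), by 3 arrays of the atrial chamber against 3 arrays of both ventricles. The arrays were chosen by their titles, and they are 6 of the 36 arrays of the series. The series profiled total RNA of normal C57BL/6 embryos from timed matings between E10.5 and E18.5 on Affymetrix Mouse 430 2.0 arrays, with atria and ventricles separated from E12.5 on. Both groups share strain and age, and no allele, transgene or agent was named for either. The titles of all 6 arrays gave E16.5 and their free-text descriptions day 15.5, and the titles were followed. The labels did not say whether the atrial sample held the left, the right or both atria, nor whether the 3 arrays of a chamber came from separate embryos, litters or pools. The p-values below rest on the spread between arrays within groups, pooled over all 36 arrays of the series. That spread may be technical, and it is not that of the 6 arrays of E16.5 alone.

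At this age septation of the chambers is complete and the myocardium is maturing. Atrial and ventricular muscle cells use different isoforms of sarcomere proteins, ion channels and calcium regulators. Atrial identity is held by transcription factors such as Tbx5, Nr2f1 and Nr2f2, and ventricular identity by Irx4, Hey2 and Hand1. The atria also receive the great veins and hold the sinus node, the pacemaker of the heart, and the outer surface of both chambers is covered by epicardium, a mesothelial layer. In bulk tissue, fewer cells of a type and less RNA per cell cannot be told apart.

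All 6 arrays had been brought to a 2% trimmed mean of 500 by the authors, and their median intensities lay between 159.2 and 194.6. Pearson correlations over probe sets, on the log2 scale, were 0.958 to 0.977 within a chamber and 0.924 to 0.945 between chambers, as a description. Sums of 2 chamber lists describe the arrays. The lists were written with earlier results of these data known, so the sums are no independent check of the labels. The summed intensity of 23 atrial chamber genes was 103011 to 118809 on the atrial arrays and 41088 to 44991 on the ventricular arrays. The summed intensity of 22 ventricular chamber genes was 137885 to 150988 on the ventricular arrays, but on the atrial arrays it was 56733, 111558 and 52732.

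3 arrays stood apart from their group. Atrial array 2 carried ventricular transcripts at levels between the chambers. For the 16 ventricular genes at least 2-fold higher in ventricles than on atrial arrays 1 and 3, it lay a median of 27.8% of the way from those arrays to the ventricular mean (range −15.0% to 111%). For atrial array 1, placed in the same way between atrial array 3 and the ventricles over 15 genes, the median was 1.94%. Atrial array 2 also had the highest erythroid sum, 49027 against 14070 and 25737 on the other atrial arrays and 9099 to 16825 on the ventricular arrays, and the highest skeletal muscle sum, 25758 against 12824 to 18197 on the other 5 arrays. Atrial array 3 had the highest sum of foregut and lung genes, 13226 against 3622 to 8873 elsewhere. Ventricular array 2 had the highest sum of liver genes, 13094 against 1123 to 5994 elsewhere. The sources of these transcripts were not tested. Values without these arrays are given beside the results that they moved most. 2 genes of these tissues, chosen after their values were seen, show the sizes: the surfactant gene Sftpc read 5694 on atrial array 3 and 127.2 to 244.8 on the other 5 arrays, and the albumin gene Alb read 4237 on ventricular array 2 and 1235 on atrial array 2 against 178.5 to 365.8 on the other 4.

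**Figure D1:**
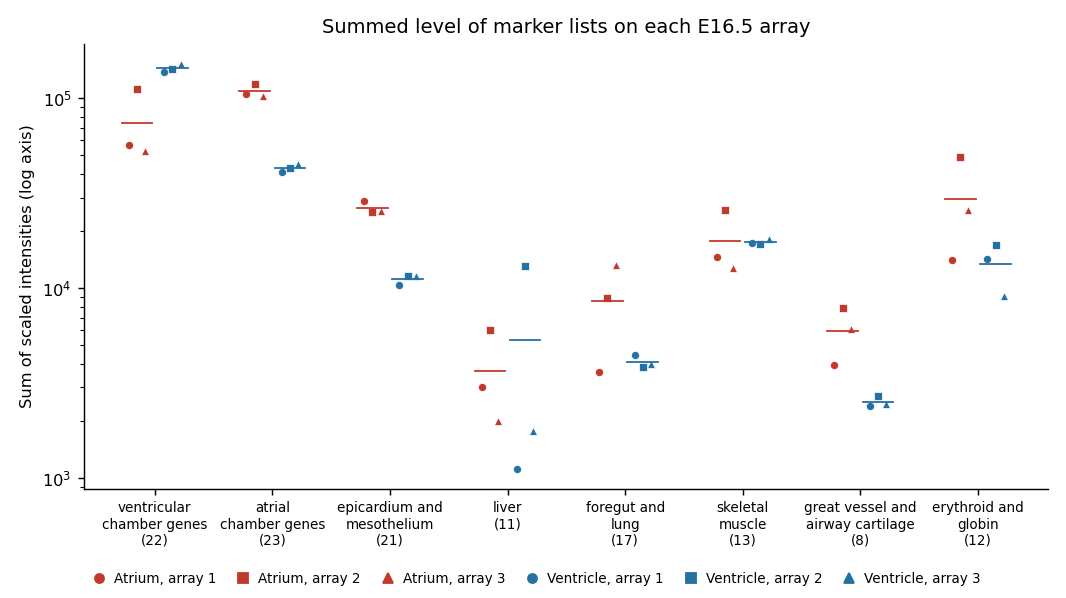
Sum of scaled intensities over the measured members of 8 marker lists (log axis) on each of the 6 arrays at E16.5, with the number of genes in brackets; symbols mark the array number, and bars the arithmetic mean of the 3 arrays. Atrial array 2 (111558) lies between the other atrial arrays and the ventricles for ventricular genes, ventricular array 2 (13094) is highest for liver genes and atrial array 3 (13226) for lung genes.

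Of 27256 probe sets tested, 4600 (16.9%) differed between the chambers at an adjusted p below 0.05, which is what "called" means below. Of these, 2331 (8.55%) were higher and 2269 (8.32%) lower in atria. With each gene taken by the probe set of highest mean, 2551 of 12983 genes (19.6%) were called, 1419 higher (10.9%) and 1132 lower (8.72%). Called genes at least 2-fold apart numbered 335 higher (2.58%) and 198 lower (1.53%). The arrays of the 2 groups did not overlap for 4742 genes (36.5%). The 20 genes named as furthest apart in each direction were taken only from called genes without overlap. For them the absence of overlap is a condition of the choice and not a result. Differences are given as atrium minus ventricle on the log2(intensity + 17) scale with their standard error, so that folds of weak genes are understated. The median over all genes was −0.02. Centring each array on its median moved this split: 2757 probe sets were then higher and 1013 lower, 73.1% of the calls higher against 50.7% in the deposited scaling, and the median over all probe sets moved from −0.05 to 0.06. Small differences below, those of the metabolic genes above all, depend on that choice.

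**Figure D2:**
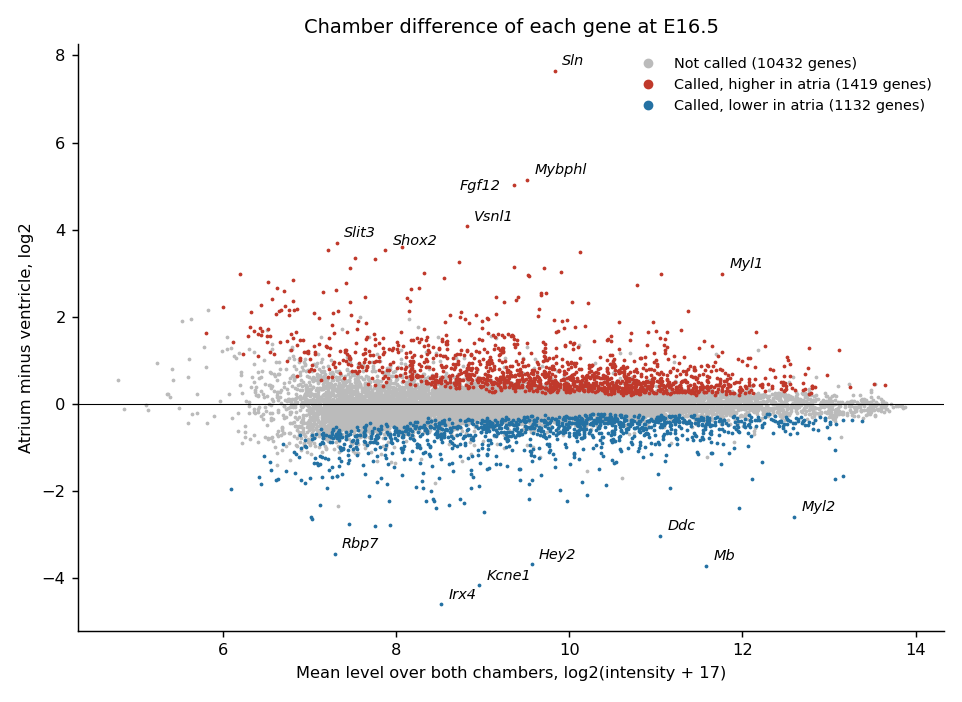
Difference between the chambers (atrium minus ventricle, log2) against the mean level over both chambers, log2(intensity + 17), for each of 12983 genes at E16.5. Red points are the 1419 genes called higher and blue points the 1132 genes called lower in atria; Sln stands at 7.65 and Irx4 at −4.59.

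Of the 23 atrial chamber genes, all measured, 18 were called higher and 1 lower in atria, against 10.9% and 8.72% of all genes, with a median difference of 1.68. Sln, which encodes sarcolipin, a small inhibitor of the calcium pump of the sarcoplasmic reticulum, had intensities of 12108, 15577 and 11282 on atrial arrays 1, 2 and 3 and of 11.1, 254 and 17.7 on ventricular arrays 1, 2 and 3. Every atrial array was far above every ventricular array, while the absence of overlap was a condition of the choice. The ventricular array with liver transcripts was the highest of its group. The difference was 7.65 ± 0.99 (adjusted p = 2.6e-06), and 8.69 without ventricular array 2. Since ventricular arrays 1 and 3 lay at about the added constant of 17, the size depends on that constant, and no fold is given. Both probe sets of Sln were called higher. Their mean gave a smaller difference, 4.73.

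Mybphl, a relative of myosin-binding protein H found in atrial sarcomeres, read 5171, 3735 and 4158 in atria and 98.7, 136.9 and 86.7 in ventricles. Fgf12, an intracellular factor that modulates sodium channels, read 4144, 3656 and 3468 in atria against 86.6, 97.2 and 111.1. Vsnl1, a neuronal-type calcium sensor, read 2024, 1859 and 1624 against 83.2, 107.6 and 88.7. For all 3 genes the gap between the 2 groups was wide, while the absence of overlap was a condition of their choice. The differences were 5.14 ± 0.37 (adjusted p = 3.7e-10), 5.03 ± 0.58 (4.3e-07) and 4.07 ± 0.31 (6.6e-10).

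Among the transcription factors of atrial identity, Tbx5 had intensities of 2353, 1507 and 2081 in atria and 315.1, 362.5 and 289.1 in ventricles. Nr2f1, an orphan nuclear receptor, had 1968, 1651 and 2211 against 186.3, 224.3 and 204.4. Its relative Nr2f2 had 1229, 1159 and 1352 against 585.8, 616.5 and 433.1. Atrial array 2 was the lowest atrial array for each of the 3 genes, yet remained above all ventricular arrays. For Nr2f1 the absence of overlap was a condition of the choice. The differences were 2.54 ± 0.25 (adjusted p = 3.0e-08), 3.14 ± 0.29 (1.5e-08) and 1.18 ± 0.15 (2.3e-06), and both probe sets of Tbx5 and all 5 of Nr2f2 were called higher.

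The general cardiac factors did not follow these. Nkx2-5, which acts in both chambers, read 3373, 3505 and 3415 in atria and 3478, 3523 and 3258 in ventricles, a difference of 0.01 ± 0.11 (adjusted p = 0.98). Gata4 differed by −0.32 ± 0.15 (0.15). Over 31 measured cardiac transcription factors, 7 were called higher and 2 lower with a median of −0.09, and 4 were higher by the mean of probe sets or with the 6 arrays of E16.5 alone. The 7 and 2 were 22.6% and 6.45%, against 10.9% and 8.72% of all genes. Gata5, a GATA factor of the endocardium and atria, was among those higher, at 377.8, 300.8 and 368.7 against 51.5, 116.8 and 85.3 (1.90 ± 0.27, adjusted p = 7.8e-06), and so was Foxc2 (1.37 ± 0.19).

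The regulatory light chain of atrial myosin, Myl7, read 10778, 16821 and 13922 in atria and 5227, 6348 and 5866 in ventricles. The groups did not overlap, and the difference was 1.23 ± 0.21 (2.35-fold, adjusted p = 0.00014). It was 0.89 with an adjusted p of 0.065 when atrial arrays 2 and 3 were both left out. The atrial essential light chain Myl4 read 12017, 18371 and 14911 against 11196, 10816 and 11227, with the lowest atrial array close to the ventricles. Its difference of 0.42 ± 0.15 (adjusted p = 0.043) lost its call without any array of E16.5 other than atrial array 1, and was 0.27 without atrial array 2. The mean of its probe sets differed by 0.85 (adjusted p = 9.2e-05). The α myosin heavy chain Myh6 overlapped between the chambers (11939, 15968 and 13487 against 9479, 8888 and 11989) and its call (0.45 ± 0.15, adjusted p = 0.036) was lost without atrial array 2 (0.34) or 3, or ventricular array 1 or 2, while the mean of its probe sets was called (adjusted p = 0.00027). Both brightest probe sets lay near the upper end of the scale, whose highest intensity on any array of E16.5 was 18449.

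Myl1, a myosin light chain best known from fast skeletal muscle, was by contrast clearly higher in atria, at 8179, 12262 and 9379 against 1346, 1074 and 1264 (2.99 ± 0.41, adjusted p = 6.7e-06). Pdlim4, a PDZ and LIM domain protein that binds α-actinin, read 647.5, 467.6 and 373.6 against 21.7, 23.0 and 36.5 (3.52 ± 0.35, 4.5e-08). Over 17 measured thick filament genes, 6 were called higher and 4 lower, and over 30 thin filament and Z-disc genes 7 higher and 3 lower, with medians of 0.10 and −0.05. The shares were 35.3% and 23.5% for the first list and 23.3% and 10% for the second, against 10.9% and 8.72% of all genes. Of the thin filament and Z-disc genes, 5 were lower without atrial array 2 and 1 without atrial array 3 or ventricular array 3, and 4 were higher without ventricular array 3. The 4 lower thick filament genes were Myl2, Myl3, Myh7 and Myh7b, and 1 of them remained called without atrial array 1 or without atrial array 3. The skeletal troponin genes Tnnt3 and Tnnc2 were called higher (2.05 ± 0.46 and 2.41 ± 0.70), but both were highest on atrial array 2, at 510.6 and 784.1, and without it their differences were 1.42 and 1.47, the second no longer called (adjusted p = 0.18). Tnnc2 also lost its call without ventricular array 1 (2.33) or 3 (2.34).

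The natriuretic peptide genes, whose products lower blood volume and which mark fetal working muscle of both chambers, were not called. Nppa read 10815, 17476 and 14233 in atria and 10095, 9874 and 10192 in ventricles, each atrial array above each ventricular array but the lowest by a small margin (0.47 ± 0.19, adjusted p = 0.086). Nppa too lay near the upper end of the scale, most of all on atrial array 2. It was called without atrial array 1 (0.65, adjusted p = 0.028), after quantile normalization (0.53, 0.0022) and after median centring (0.58, 0.041). Nppb differed by 0.63 ± 0.26 (adjusted p = 0.099, and 0.045 after quantile normalization). Of 14 measured genes of natriuretic and endocrine secretion, 6 were called higher and none lower, with a median of 0.52. Pam, the amidating enzyme that is the major membrane protein of atrial secretory granules, read 4742, 3936 and 3253 against 981.5, 1458 and 1358 (1.64 ± 0.24, adjusted p = 1.2e-05). Npr3, the clearance receptor, read 5134, 4013 and 4349 against 1841, 1900 and 1785 (1.27 ± 0.15, 7.7e-07), and Adm, the vasodilator peptide adrenomedullin, was higher by 1.36 ± 0.23.

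Bmp10, a ligand made by heart muscle, read 2250, 1533 and 1316 in atria and 540.2, 568.8 and 419 in ventricles (1.68 ± 0.38, adjusted p = 0.0022). Gja5, connexin 40 of atrial and conduction tissue, read 892.5, 552.5 and 722.9 against 178.2, 211.2 and 155.3 (1.88 ± 0.43, 0.0023). Angpt1, a ligand of the endothelial receptor Tek, read 6006, 5770 and 6249 against 697.3, 745.1 and 788.9 (2.99 ± 0.29, 2.4e-08). All 3 secreted or junctional genes separated the chambers without overlap, which for Angpt1 was a condition of the choice. Stard10, Dkk3 and Adm belonged to the same list and were higher as well. The one atrial list gene called lower was Kcna5, a potassium channel of adult atria, at 385, 516.8 and 278.5 against 593.9, 730.7 and 896.9. Its difference was −0.91 ± 0.30 (adjusted p = 0.034), and the call was lost without atrial array 1 or 3, or ventricular array 2 or 3.

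**Figure D3:**
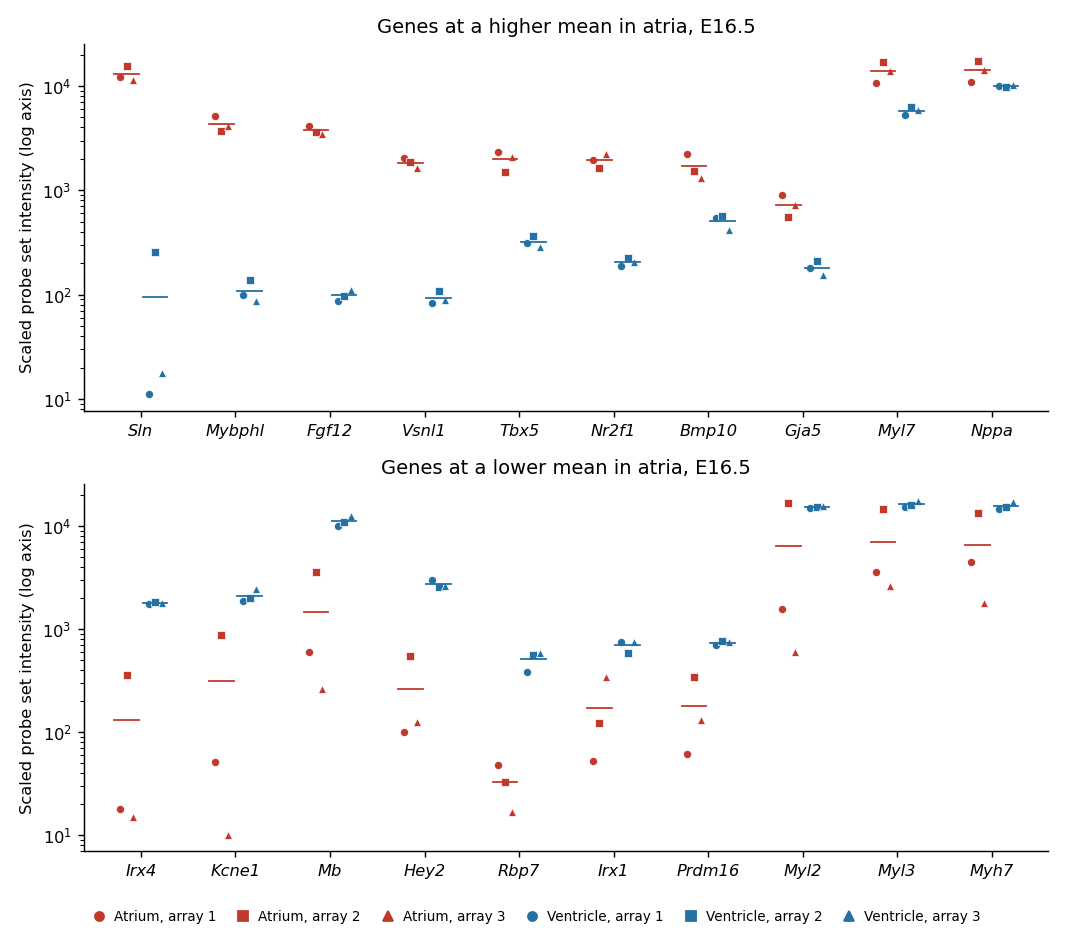
Scaled intensity (log axis) of 10 genes with a higher and 10 with a lower mean in atria on each of the 6 arrays at E16.5; colours mark the chamber, symbols the array number and bars the arithmetic mean of 3 arrays. Atrial array 2 (square) is the highest atrial array for Irx4 (355.6), Kcne1, Mb, Hey2, Myl2, Myl3 and Myh7, and ventricular array 2 the highest ventricular array for Sln (254).

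Of the 22 ventricular chamber genes, all measured, 17 were called lower in atria and none higher, with a median of −1.72. Without atrial array 2, 18 were lower and the median was −2.21, and with any other array left out 12 to 14 were lower. Irx4, an Iroquois homeobox factor restricted to ventricular muscle, read 18, 355.6 and 15 on atrial arrays 1 to 3 and 1757, 1820 and 1787 in ventricles. Hey2, a Notch-regulated repressor of compact myocardium, read 100.3, 548.5 and 125.5 against 2966, 2528 and 2615. For both factors atrial array 2 lay several-fold above its group and below all ventricular arrays, and the absence of overlap was a condition of their choice. The differences were −4.59 ± 0.82 (adjusted p = 0.00019), with atrial arrays 1 and 3 near the added constant for Irx4, and −3.68 ± 0.55 (12.8-fold, 2.0e-05), and without atrial array 2 they were −5.75 and −4.39.

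Other Iroquois genes were lower in atria by less. Irx1 read 51.7, 122.6 and 341.4 against 747.4, 582.5 and 743.4 (−2.22 ± 0.42, adjusted p = 0.00038), here with atrial array 3 the highest of its group. Irx2 read 128.9, 143.6 and 213 against 950, 827.1 and 802.3 (−2.32 ± 0.31, 3.4e-06). Irx3 was lower by a smaller amount (−1.28 ± 0.26), and Irx5, named to complete the measured family, differed by −0.02 ± 0.13 (adjusted p = 0.94). Hand1, a factor of the left ventricle, was lower as well (−1.20 ± 0.29, adjusted p = 0.0036), and Prdm16, a zinc-finger factor of compact myocardium, read 60.4, 339.8 and 129.7 against 691.7, 760.2 and 737.3 (−2.23 ± 0.49, 0.0016, and −2.81 without atrial array 2).

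Kcne1, the small subunit of the slow delayed rectifier potassium channel, read 50.5, 868.7 and 10 in atria and 1869, 1996 and 2417 in ventricles. Mb, myoglobin, read 600.9, 3534 and 258.8 against 10011, 10888 and 12546. Rbp7, a retinol-binding protein, read 47.6, 32.3 and 16.8 against 383.1, 551.6 and 580.7. No array of one chamber reached the other for any of the 3, which was a condition of their choice. Kcne1 and Mb were many-fold higher on atrial array 2 than on the other atrial arrays, whereas Rbp7 was not. The differences were −4.16 ± 0.90 (adjusted p = 0.0015), −3.72 ± 0.73 (0.00053) and −3.43 ± 0.66 (0.00044), and −5.62, −4.75 and −3.46 without atrial array 2.

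The ventricular myosins also moved with that array. Their ventricular intensities lay near the upper end of the scale, whose highest intensity on any array of E16.5 was 18449. Myl2, the ventricular regulatory light chain, read 1556, 16782 and 594 in atria and 14809, 15146 and 15612 in ventricles, so that atrial array 2 was above all ventricular arrays and the groups overlapped. Its difference was −2.59 ± 0.77 (adjusted p = 0.019) over all arrays and −3.96 without atrial array 2, and it was not called without atrial array 1 (−2.25, adjusted p = 0.084), atrial array 3 (−1.56, 0.18) or ventricular array 3 (−2.57, 0.055). Myl3, the ventricular essential light chain, read 3585, 14611 and 2629 against 15430, 16003 and 17387 (−1.65 ± 0.43, adjusted p = 0.0073, and −2.40 without atrial array 2), and was not called without atrial array 1 (−1.39) or 3 (−1.16). Myh7, the β myosin heavy chain, read 4444, 13378 and 1776 against 14660, 15179 and 17209 (−1.72 ± 0.57, adjusted p = 0.037). Its difference was −2.47 without atrial array 2, and it was not called without any of the other 5 arrays. Pln, phospholamban, the ventricular counterpart of sarcolipin, was not called (−0.77 ± 0.28, adjusted p = 0.058) over all arrays, and was at −1.04 (0.018) without atrial array 2.

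Ddc, the decarboxylase of catecholamine and serotonin synthesis, read 535.9, 1643 and 430.1 in atria and 5726, 6164 and 6213 in ventricles (−3.02 ± 0.54, adjusted p = 0.00017, and −3.60 without atrial array 2). Wif1, a secreted Wnt inhibitor, read 42.6, 186.9 and 28.2 against 573.6, 512.2 and 568.4 (−2.79 ± 0.65, 0.0028, and −3.45 without that array). Lbh, a cardiac transcription cofactor, was lower as well (−1.72 ± 0.27). The gap-junction gene of working muscle, Gja1, was not called on its brightest probe set (−0.27 ± 0.16, adjusted p = 0.26), but 3 of its 6 probe sets were called lower and the mean over its probe sets was −0.64 (adjusted p = 0.0026).

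To show the DNA in front of genes that differed in opposite directions, the 250 bases before the start of 4 of them are printed, each a chamber gene with 1 start listed in RefSeq on GRCm38.p6: Mybphl and Myl7, higher in atria, and Irx4 and Hey2, lower. They were chosen after their values were seen. Mybphl lies at chr3:108364661-108364910 on the plus strand, Myl7 at chr11:5898783-5899032 on the minus strand, Irx4 at chr13:73260247-73260496 on the plus strand and Hey2 at chr10:30842784-30843033 on the minus strand. Capitals mark a match on either strand to any of 8 motifs searched. The core of T-box sites was searched as GGTGTG. Its longer form, which contains that core, was searched as AGGTGTGA. A nuclear receptor half-site was searched as AGGTCA. The E-box bound by Hey-type repressors was searched as CACGTG. A palindrome known for Iroquois factors was searched as ACANNTGT. The GATA factor site was searched as AGATAA. The site of NKX2-5 was searched as AAGTGG. The TATA box was searched as TATAAA.
Mybphl: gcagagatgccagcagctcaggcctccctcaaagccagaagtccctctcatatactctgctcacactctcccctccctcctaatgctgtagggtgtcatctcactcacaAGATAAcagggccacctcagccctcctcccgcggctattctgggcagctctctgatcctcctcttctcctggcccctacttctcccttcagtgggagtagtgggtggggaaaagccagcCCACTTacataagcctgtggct
Myl7: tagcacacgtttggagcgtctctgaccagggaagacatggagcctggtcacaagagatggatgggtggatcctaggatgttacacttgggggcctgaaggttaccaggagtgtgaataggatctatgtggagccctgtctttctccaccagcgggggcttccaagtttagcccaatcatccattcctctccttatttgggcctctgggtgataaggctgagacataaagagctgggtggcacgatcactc
Irx4: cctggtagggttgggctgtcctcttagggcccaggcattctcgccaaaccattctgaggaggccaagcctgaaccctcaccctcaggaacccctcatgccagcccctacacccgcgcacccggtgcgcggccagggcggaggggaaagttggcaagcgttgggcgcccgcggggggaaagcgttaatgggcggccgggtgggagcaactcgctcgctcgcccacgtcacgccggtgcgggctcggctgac
Hey2: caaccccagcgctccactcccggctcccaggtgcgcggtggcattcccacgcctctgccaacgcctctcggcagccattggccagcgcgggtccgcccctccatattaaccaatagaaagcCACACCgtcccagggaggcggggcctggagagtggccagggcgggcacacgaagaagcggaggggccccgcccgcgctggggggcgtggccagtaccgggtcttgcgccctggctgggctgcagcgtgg

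Mybphl held a GATA and an NKX2-5 match, Hey2 a T-box core, and Myl7 and Irx4 none of the 8 motifs in this window. Of the 20 genes furthest above and the 20 furthest below in atria, 13 and 16 had a promoter entry. The T-box core was in 2 of the 13 and 3 of the 16 promoters, against 15.3% of the 10441 promoters of genes tested. The nuclear receptor half-site was in 1 of 13 and 2 of 16, against 10.6%, and the NKX2-5 site in 2 of 13 and 3 of 16, against 13.6%. The Iroquois palindrome was in 0 of 13 and 1 of 16, against 3.68%, and the E-box in 1 of each, against 8.35%. The GATA site and the longer T-box form were each in 1 of 13 and 0 of 16, against 6.10% and 0.728%, and the TATA box in 2 of each, against 7.32%. With so few promoters these counts are a description, and a match or its absence says only which letters are in the window.

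Of the 40 genes furthest apart, several belong to no list. Among those higher in atria were Ryr3, a ryanodine receptor calcium channel, at 1036 to 1525 against 88.2 to 186 (3.26 ± 0.37, adjusted p = 2.7e-07), and Slc39a8, a zinc transporter, at 3140, 2126 and 2183 against 214.8, 259.7 and 333.2 (3.12 ± 0.39, 1.8e-06). Camk1d, a calcium/calmodulin-dependent kinase, read 1164, 771.2 and 778.9 against 105.7, 110.9 and 76.1, with all 3 of its probe sets called higher (adjusted p = 8.4e-10). Pla2g7, which hydrolyses platelet-activating factor, Myrf, a membrane-bound transcription factor, Adh6b, an alcohol dehydrogenase, and Slc7a14 were higher by 3.61 ± 0.60, 3.03 ± 0.38, 3.36 ± 0.64 and 2.99 ± 0.56. In ventricles, the genes outside the lists included Tmem255a, at 179.3, 222.8 and 204 in atria against 1136, 1172 and 1328 (−2.49 ± 0.40, adjusted p = 4.4e-05, 4 of 4 probe sets), and Sobp, at 25.9, 46.5 and 36.5 against 319.5, 296.5 and 280.4 (−2.58 ± 0.43, 8.0e-05). These 2 ventricular genes were at similar levels on all 3 atrial arrays. Epn3, Ky, Rilp, Upp1, Mpped2, Gtsf1 and Tpd52l1 had differences between −2.77 and −2.23, and each was highest in atria on array 2. Without it the differences lay between −3.46 and −2.66. The mean of the probe sets of Gtsf1 gave −1.32.

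Of 16 measured sinus node and conduction genes (21 listed), 9 were called higher in atria and none lower, with a median of 0.80, and 6 had a negative difference. Without atrial array 2, 8 were higher and 1 lower. The list shares members with the atrial chamber list, among them its gene furthest apart, Vsnl1, so the 2 counts are not separate. Shox2, a homeobox factor needed for the sinus node, read 761.7, 800.8 and 777.2 in atria and 38, 68.3 and 53.4 in ventricles (3.53 ± 0.43, adjusted p = 1.0e-06). Kcnj3, a subunit of the acetylcholine-activated potassium channel, read 1878, 1052 and 1249 against 230.1, 276.1 and 256.2 (2.34 ± 0.25, 1.3e-07), and its partner Kcnj5 was higher by 0.91 ± 0.18. Isl1, a progenitor and pacemaker factor, read 75.7, 243.6 and 21.7 against 14.6 to 14.8, and its call (1.63 ± 0.52, adjusted p = 0.029) was lost without atrial array 2 (0.92, 0.25), without atrial array 1 or without any of the 3 ventricular arrays. The node factors Tbx3 and Tbx18, which are also expressed outside the node, were not called (−0.09 ± 0.29 and −0.26 ± 0.17, adjusted p = 0.87 and 0.31).

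Of 21 measured potassium channel subunits, 3 were called higher, Kcnj3 by the most, and 7 lower, median −0.09. These were 14.3% and 33.3%, against 10.9% and 8.72% of all genes, so the higher share was near that of all genes. With the 6 arrays of E16.5 alone, 1 was higher. Without atrial array 3 or without ventricular array 3, 4 were lower. Beside Kcne1 and Kcna5, the lower genes included Kcnip2, a subunit of the transient outward current (−2.18 ± 0.58, not called without atrial array 3, at −1.56, or ventricular array 3, at −1.90), Kcne3 (−1.66 ± 0.35), the Kcne1 partner Kcnq1 (−1.08 ± 0.24) and Abcc9, the regulatory subunit of the ATP-sensitive channel (−0.92 ± 0.12, adjusted p = 3.4e-06). Of 13 calcium, sodium and pacemaker channel genes, 3 were called: Fgf12 and Cacna2d2, an auxiliary calcium channel subunit, were higher (Cacna2d2 by 1.67 ± 0.19 on its brightest probe set and 0.87 as the mean of its probe sets), and Cacna1c, the pore of the L-type channel, was lower (−0.74 ± 0.13, adjusted p = 0.00015). The called shares of this list, 15.4% higher and 7.69% lower, were near those of all genes (10.9% and 8.72%). Among 22 sarcoplasmic reticulum genes, Sln, Itpr2 and Fkbp1b were higher and S100a1, a calcium sensor of ventricular muscle, lower. These were 13.6% and 4.55% of the list, near the 10.9% and 8.72% of all genes. Itpr2 differed by 1.18 ± 0.22 on its brightest probe set and by 0.33 (adjusted p = 0.11) as the mean of its probe sets. The lower count was 3 without atrial array 1, 2 without atrial array 2 and 0 without atrial array 3. The call of S100a1 (−0.80 ± 0.21) was lost without atrial array 3 (−0.58) or ventricular array 3 (−0.68), and that of Fkbp1b (0.88 ± 0.24) without atrial array 1 (0.75) or 2 (0.74). Of 22 junction and intercalated disc genes, Gja5 was higher and 5 were lower, Nrap, a protein of forming myofibrils, by the most (−1.08 ± 0.27, adjusted p = 0.0064). The shares were 4.55% higher and 22.7% lower, against 10.9% and 8.72% of all genes. After median centring 2 of the 5 were still lower.

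Genes of BMP and TGF-beta signalling, secreted pathways that pattern valves, septa and matrix, were mostly higher in atria. Of 29 measured genes, 17 were called higher and 1 lower, with a median of 0.44, and 11 were higher without atrial arrays 2 and 3. Among ligands, Bmp4 read 521.1, 552.4 and 753 in atria and 175.6, 210.2 and 230.2 in ventricles (1.48 ± 0.26, adjusted p = 0.00014), with no overlap. Bmp2 was higher by 1.62 ± 0.43, a call lost without atrial array 2 (1.36, adjusted p = 0.057). The one gene lower in atria was the ligand Bmp7, at 1281, 936.9 and 1269 against 2112, 1990 and 1826 (−0.77 ± 0.18, adjusted p = 0.0038). Among receptors, Bmpr2 and Acvr1 were higher by 0.44 ± 0.08 and 0.40 ± 0.09 on their brightest probe sets, but neither was called by the mean of its probe sets (0.14 and 0.25, adjusted p = 0.37 and 0.058). Among targets and inhibitors Id2, Id4 and Smad6 were higher by 0.66 to 1.05. The antagonist Chrd was called (1.05 ± 0.34, adjusted p = 0.032) but was lost on leaving out any 1 of the 6 arrays (0.99 to 1.11).

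For Wnt ligands and modulators, 10 of 24 measured genes were called higher and 1, Wif1, lower, with a median of 0.51. Dkk3, a secreted protein of the Dickkopf family, read 4384, 3332 and 3460 in atria and 285.3, 386.9 and 284.8 in ventricles (3.48 ± 0.26, adjusted p = 3.7e-10). Fzd7, a Wnt receptor, read 1242, 943.7 and 1285 against 240.8, 285.4 and 259.9 (2.06 ± 0.19, 1.1e-08). Wnt2, a ligand of the inflow mesoderm, read 180.7, 185.1 and 317.9 against 26.6, 17 and 85.6 (2.15 ± 0.41, 0.00044). It was highest on atrial array 3, the array with the highest sum of foregut and lung genes, and the part of such tissue was not tested. The chambers did not overlap for any of Dkk3, Fzd7 and Wnt2, which for Dkk3 was a condition of the choice. The inhibitors Sfrp1 and Sfrp2 were higher as well (1.35 ± 0.17 and 1.79 ± 0.39).

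Epicardial and mesothelial genes gave the largest share of calls of the lists described here. Of 21 measured genes (23 listed), 18 were called higher and none lower in atria, with a median of 1.59, and the counts stayed at 16 or more when any array was left out. Upk3b, a uroplakin of mesothelium, read 5147, 4501 and 3994 in atria and 520.9, 778.2 and 742.3 in ventricles (2.72 ± 0.24, adjusted p = 8.3e-09). Krt7, a simple-epithelium keratin, read 848.2, 743.5 and 682.2 against 72.3, 107.9 and 142.9 (2.67 ± 0.31, 5.8e-07). Gpm6a, a membrane glycoprotein of mesothelium, read 2337, 1979 and 1824 against 264.5, 365 and 381.5 (2.55 ± 0.24, 2.0e-08). The 3 atrial arrays were alike and all well above the ventricles. Aldh1a1, a retinaldehyde dehydrogenase, was higher by 3.12 ± 0.38, while the epicardial factor Tcf21 was higher by less (0.69 ± 0.14, adjusted p = 0.00052). In this list 2 genes had a negative difference, the lowest Tbx18 (−0.26, not called). The summed intensity of the list was 25099 to 28859 in atria and 10340 to 11589 in ventricles. How much of this lies in the share of surface tissue in each dissected chamber was not tested.

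Larger shares of the genes of interstitial matrix and elastic fibres were called higher in atria than of all genes (10.9%). Basement membrane genes were called at about the shares of all genes. Of 32 measured genes of fibroblasts and interstitial matrix, 14 were called higher and 1 lower, with a median of 0.56, and 7 were higher without atrial arrays 2 and 3. Of 17 measured elastic fibre genes 8 were called higher and none lower, all 17 had a positive difference, and the median was 0.87. Without atrial arrays 2 and 3, 5 of them were called. Of 16 basement membrane genes 2 were higher (12.5%) and 1 lower (6.25%), against 10.9% and 8.72% of all genes, with a median of −0.01. Mfap4, a microfibril-associated protein, read 544.6, 493.9 and 1114 in atria and 44.1, 58 and 52.2 in ventricles (3.33 ± 0.73, adjusted p = 0.0018). It was highest on atrial array 3, the array with the highest sum of foregut and lung genes, and its difference was 2.97 without that array. Mfap4 counts in both the fibroblast and the elastic fibre list. Eln, elastin, read 2598, 5011 and 4311 against 900, 1216 and 994.9 (1.88 ± 0.51, 0.0097), and the cross-linking enzyme Lox read 1929, 2443 and 2512 against 736.5, 883.4 and 846.6 (1.46 ± 0.29, 0.00053). No array of either chamber crossed over for these 3, which for Mfap4 was a condition of the choice. Eln was lower on atrial array 1 than on the other 2, and its difference was 1.32 (adjusted p = 0.29) without them. Markers of great vessel and airway cartilage summed to 3922, 7822 and 6074 in atria against 2384 to 2712 in ventricles. That list includes Eln itself, which made up most of each atrial sum, so the sums are not separate from the Eln difference. The part of such tissue in these differences was not tested. The 1 member of the fibroblast and interstitial matrix list called lower in atria was Thy1, which is also in the thymus and lymphocyte list. Its call (−0.76 ± 0.26, adjusted p = 0.043) was lost without any array except atrial array 2.

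Genes of endothelium and endocardium went both ways, 10 of 25 called higher and 9 lower. Plvap, a protein of endothelial diaphragms, read 3071, 2472 and 2725 in atria and 793.5, 1112 and 1080 in ventricles (1.46 ± 0.22, adjusted p = 2.1e-05), and Vwf, Tek, Eng and Npr3 were higher too (0.70 to 1.29). Sox17, an arterial endothelial factor, read 96.6, 401.7 and 267.3 against 825.2, 886.7 and 967.3 (−1.93 ± 0.47, 0.0040, and −1.40 with an adjusted p of 0.052 without atrial array 1). The tight-junction gene Cldn5 (−1.49 ± 0.39), the fatty acid binding protein Fabp4 (−2.39 ± 0.76) and the peptide apelin, Apln (−0.74 ± 0.17), were also lower. Fabp4 lost its call without any array except atrial array 2 (−2.44 to −1.79). Cldn5 and Sox17 lost their calls without atrial array 1, and without it 4 of the list were lower. Pan-endothelial Pecam1, shown for comparison, differed by 0.18 ± 0.14 (adjusted p = 0.41).

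Of 14 smooth muscle and pericyte genes, 2 were called higher and 5 lower, 14.3% and 35.7% against 10.9% and 8.72% of all genes. The median was −0.35, with 3 positive and 11 negative differences. The contractile genes Tagln and Cnn1 were the 2 called higher (1.91 ± 0.44 and 1.55 ± 0.24), against the direction of most of the list. The pericyte genes Cspg4, at 222, 278.6 and 255 against 890.6, 725.9 and 776.9 (−1.60 ± 0.24, adjusted p = 2.5e-05), and Higd1b (−1.36 ± 0.37) were lower. In the macrophage and leukocyte list, 6 of 21 were higher and none lower, with Csf1r, the macrophage growth factor receptor, at 3013, 3414 and 3252 against 1657, 1631 and 1418 (1.03 ± 0.21, adjusted p = 0.00063). Without atrial array 1, atrial array 2 or ventricular array 1, 3 of these were higher. Of embryonic globins, Hba-x and also Hbb-y were called higher (2.32 ± 0.50 and 1.65 ± 0.36), both highest on atrial array 2, and without atrial arrays 2 and 3 neither was called (adjusted p = 0.29 and 0.43).

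Transcripts of energy metabolism were mostly lower in atria by small amounts, to a degree that depended on the scaling. Of 49 measured genes of oxidative phosphorylation and the citric acid cycle, 18 were called lower and none higher (median −0.23), and 48 had a negative difference. Of 30 fatty acid genes 13 were lower and none higher (median −0.37), and of 28 genes of glucose uptake, glycolysis and glycogen 10 were lower and none higher (median −0.28). Idh3b, a subunit of isocitrate dehydrogenase, read 5321, 4327 and 4346 in atria and 6564, 7010 and 7012 in ventricles (−0.56 ± 0.08, adjusted p = 6.7e-06). Eci1, an enzyme of unsaturated fatty acid oxidation, read 2004, 2117 and 1711 against 3593, 4138 and 4817 (−1.09 ± 0.16, 1.3e-05). Slc16a3, a lactate transporter, read 1141, 825.8 and 825.7 against 2409, 2515 and 2098 (−1.33 ± 0.25, 0.00042). The chambers did not overlap for these 3 genes.

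These counts moved with the scaling and with single arrays. For oxidative phosphorylation, 24 genes were lower without atrial array 2, with a median of −0.36, while 3 genes were called lower after median centring and 30 after quantile normalization, 9 without atrial array 3 and 6 without ventricular array 3. For fatty acid genes the corresponding counts were 5, 14, 8 and 8, and for glucose genes 4, 13, 5 and 4, and for the last 5 without ventricular array 2 and 6 without atrial array 1. Without atrial array 2, 13 fatty acid and 13 glucose genes were lower (medians −0.47 and −0.39). Genes of phosphagen and oxygen storage differed by more: 5 of 8 were lower with a median of −0.76, among them Mb, Ckb, the brain-type creatine kinase, at 2768, 2854 and 2382 against 5025, 5417 and 5845 (−1.02 ± 0.11, adjusted p = 9.6e-08), and Ampd3, an AMP deaminase, at 367.3, 334.8 and 232.3 against 850.6, 867.3 and 930.9 (−1.48 ± 0.22, 2.4e-05). Ckb and Ampd3 showed no rise on atrial array 2 above the other atrial arrays comparable to that of Mb.

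Of 36 genes of DNA replication and mitosis, 3 were called lower and none higher, at a median of −0.13, a share of 8.33% against 8.72% of all genes. No gene of the list was called after median centring, 1 or 2 were when an array was left out, and 5 were after quantile normalization or with array weights. Of 21 G1 cyclins and inhibitors 2 were higher, the inhibitor Cdkn1c by 0.86 ± 0.18 (adjusted p = 0.0013), and 3 lower, Mycn by the most (−1.11 ± 0.25, 0.0023). The shares of this list were 9.52% and 14.3%, against 10.9% and 8.72% of all genes. 1 was higher without atrial array 3. 1 was lower without ventricular array 3 or after median centring, and 5 were lower by the mean of probe sets.

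**Figure D4:**
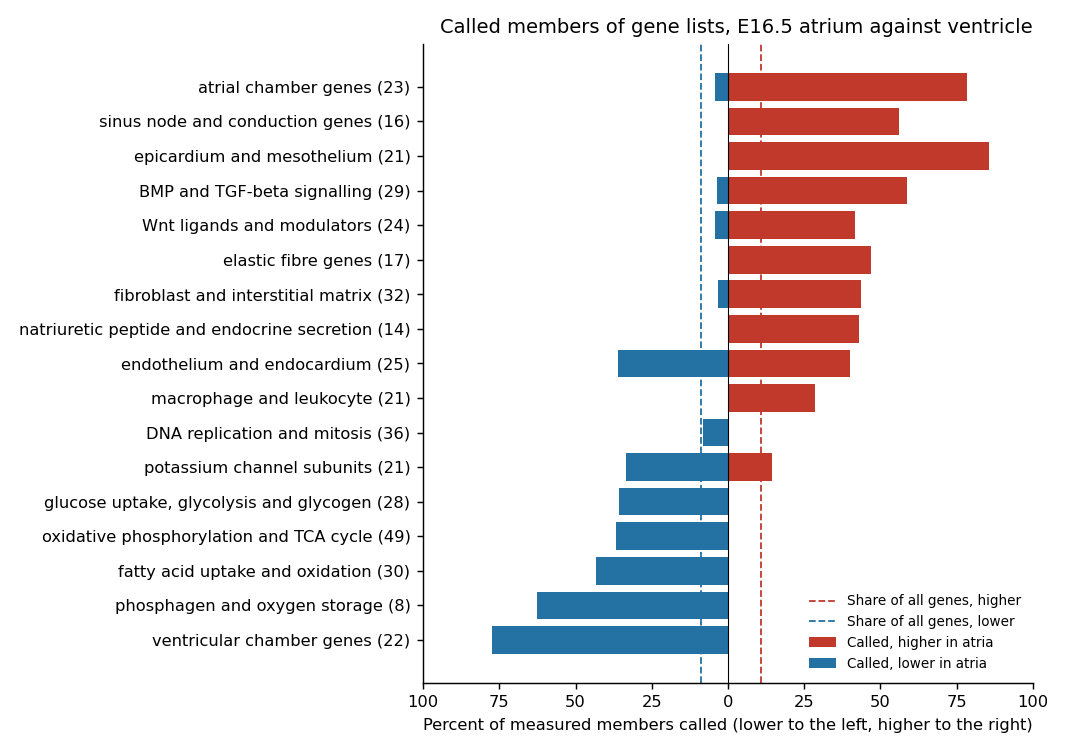
Percent of the measured members of 17 gene lists (number in brackets) called higher (right, red) or lower (left, blue) in E16.5 atria than ventricles; dashed lines mark the shares of all genes, 10.9% higher and 8.72% lower. The atrial, epicardial and BMP lists extend furthest to the right and the ventricular and phosphagen lists furthest to the left.

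Whether the chamber difference at E16.5 departed from that of other ages was tested in the same fit. Against the mean difference of the other 4 ages (E18.5, E14.5, E13.5 and E12.5), no probe set was called by limma (0%), and 1892 of 27256 (6.94%) had an unadjusted p below 0.05. Against E18.5 alone there were none called and 1595 (5.85%) below 0.05, and against E14.5 alone none and 1926 (7.07%). The smallest adjusted p-values were 0.056, 0.44 and 0.12. Alternative settings called at most 10 probe sets in any of the 3 tests. The comparisons use the same 6 arrays of E16.5, so they are not independent of each other.

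Within this limit, the estimates of some atrial genes were larger at E16.5 and E18.5 than at the earlier ages, and those of others were not. E16.5 and E18.5 together were not tested against the earlier ages. Mybphl differed by 2.85, 4.31 and 3.45 at the 3 earlier ages, by 5.14 at E16.5 and by 4.77 at E18.5, each ± 0.37. Tbx5 was at 1.20, 1.69 and 1.04, then 2.54 and 2.56, each ± 0.25. Bmp10 differed by −0.24, 0.78 and −0.47, then 1.68 and 2.08, each ± 0.38. The E16.5 value exceeded the mean of the other 4 ages by 1.30 ± 0.41 for Mybphl, 0.92 ± 0.28 for Tbx5 and 1.14 ± 0.42 for Bmp10, with adjusted p-values of 0.45, 0.42 and 0.55. Sln, called at all 5 ages, differed by 4.61, 5.70, 6.16, 7.65 and 6.24. Nr2f1 and Shox2 were widest at earlier ages, Nr2f1 at E13.5 (3.52) and Shox2 at E12.5 (3.82), and narrowest at E18.5 (2.66 and 2.78).

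The ventricular genes Irx4, Hey2 and Myl2 were closest to 0 at E14.5. In order of age, Irx4 was at −4.36, −5.33, −1.62, −4.59 and −4.00, Hey2 by −2.40, −3.50, −1.46, −3.68 and −3.30, and Myl2 by −1.45, −2.80, −0.60, −2.59 and −2.29. The difference between E16.5 and E14.5 was −2.97 ± 1.16 for Irx4, −2.22 ± 0.78 for Hey2 and −1.99 ± 1.09 for Myl2 (adjusted p = 0.54, 0.44 and 0.78). Rbp7 was at −1.27, −2.13 and −1.22 and then at −3.43 and −3.17. For the epicardial list, the median difference was 0.61, 0.99 and 0.69 at the earlier ages, 1.59 at E16.5 and 1.62 at E18.5. In the limma test against the mean of the other ages, which called no probe set, 14 of its 21 genes had an unadjusted p below 0.05. The share was 6.94% over all probe sets, whereas each list gene was taken by 1 probe set. The 21 genes were read on the same arrays and listed with earlier results known, so they are not independent hits.

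**Figure D5:**
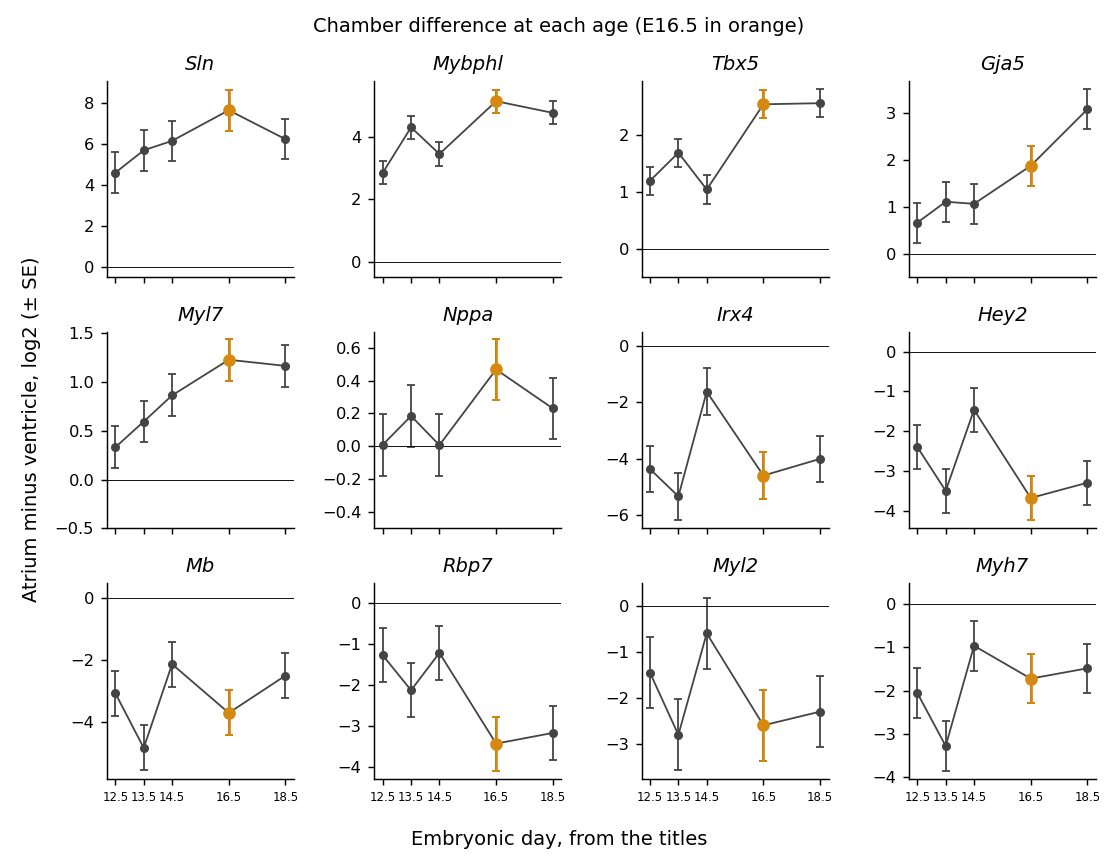
Difference between the chambers (atrium minus ventricle, log2, ± SE of the fit) for 12 genes at the 5 ages at which chambers were separated, by the day in the titles, with 3 arrays per chamber and age and E16.5 in orange. Sln and Mybphl are widest at E16.5 (7.65 and 5.14), and Irx4, Hey2 and Myl2 are closest to 0 at E14.5.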

How the data were processed

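The deposited table holds linear probe set intensities of Affymetrix Mouse 430 2.0 arrays, brought by the authors to a common level; the software and its version are not given in the sources used here. Intensities were kept as deposited, and log2(intensity + 17) was taken. Of 45101 probe sets, 64 controls were left out, and 27256 that exceeded the overall median intensity (171.8) on 3 or more of 36 arrays were tested. Genes were named through GEO's platform annotation, with symbols updated through RefSeq gene IDs (34945 probe sets with 1 symbol, 932 with several, 9160 with none). A gene was taken by its probe set of highest mean that names no other gene.

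Contrasts were fitted with limma 3.58.1 (R 4.3.3) on 12 group means over all 36 arrays, with 24 residual degrees of freedom, an intensity trend and Benjamini-Hochberg adjustment over all tested probe sets, two-sided, and called at an adjusted p below 0.05. The pipeline was tested on simulated data. Correlations of deviations between same-numbered atrial and ventricular arrays were −0.04, 0.16 and −0.18, so the numbers were not used as pairs. The group comparison and the 50 gene lists were chosen with earlier results of these data known. Since 114 genes were in more than 1 list, the counts of different lists are not independent. Named genes are the 20 furthest apart in each direction among called genes without overlap, up to 4 called members of each list, a fixed set of chamber genes, and others said to be picked later. Members of a list beyond these, named to complete a count, were chosen after their values were seen. Probe set levels were compared only between arrays. Alternatives changed the scaling, pseudocount, filter, probe set rule, variance model, block and arrays.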

Additional observations from a re-analysis of the deposited data

How the results depend on the processing

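Of 160 named genes that were called, 94 kept their call in each of the 19 alternative settings in which they were tested, and none changed direction. The strict filter tested 137 of the 160. The 4600 calls became 3065 to 3844 on leaving out 1 array, the lowest without ventricular array 3, with 1659 to 2125 higher and 1406 to 1856 lower. They became 3913 with the replicate number as a block within each age (2048 higher and 1865 lower). With the spread taken from the 6 arrays of E16.5 alone, 3185 were called (1668 higher and 1517 lower). Of the 160 named genes, 136 then remained called. Among the 24 that did not were Myl2 (adjusted p = 0.11), Myl3 (0.069), Myh7 (0.083), Myh6 (0.088) and Isl1 (0.14). Median centring left 1013 lower. 2 further settings were chosen after seeing the data. Without atrial array 2 and ventricular array 2, 3107 were called (1362 lower). Without atrial arrays 2 and 3, which leaves 1 atrial array assumed to vary like the other groups, 2037 were called (1194 higher and 843 lower), and 110 of the 160 named genes remained called. The cause of these changes in count, beyond fewer arrays, was not tested. For the test of E16.5 against the other 4 ages, with 0 calls, quantile normalization, median centring and a pseudocount of 1 each gave 1, array weights gave 10, leaving out 1 array gave 0 to 3, and leaving out atrial array 2 with ventricular array 2 gave 2. Against E18.5, array weights gave 1. Against E14.5, leaving out 1 array gave 0 to 1, atrial array 2 with ventricular array 2 gave 1, and atrial arrays 2 and 3 gave 2. With 3 arrays a group and bright genes near the top of the scale, the number of arrays and the signal range limit the precision.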

Other observations

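Axon guidance genes, which also steer cells of the inflow tract and septa, were measured for 24 of 25 listed members, and 7 were called higher and 2 lower in atria with a median of 0.14. These were 29.2% and 8.33%, against 10.9% and 8.72% of all genes. The lower count was 4 without atrial array 2 and 5 with array weights. Slit3, a secreted ligand of Robo receptors, read 624.3, 404.4 and 676.2 in atria and 17.7, 19 and 51.7 in ventricles (3.70 ± 0.33, adjusted p = 8.3e-09). The ephrin receptor Epha4 read 2670, 1601 and 1998 against 252.6, 270.5 and 230.7, with all 4 of its probe sets higher (2.94 ± 0.28, 1.6e-08), and Plxna4, a semaphorin co-receptor, was higher by 1.13 ± 0.20. Of 18 Notch genes 3 were higher and 3 lower (5 lower by the mean of probe sets or with array weights). These were 16.7% each, against 10.9% and 8.72% of all genes. The ligand Jag1 was higher (1607, 1903 and 1841 against 495.8, 592.2 and 486.6, a difference of 1.73 ± 0.14, adjusted p = 1.2e-09, and 0.88 as the mean of its probe sets). The repressors of the pathway split, Hey1 higher by 0.73 ± 0.16 and Hey2 lower. Among growth factor genes, Igfbp2, which binds insulin-like growth factors, read 2104, 2023 and 2997 against 483.9, 545.7 and 342.8 (2.34 ± 0.30), and Pdgfb, the platelet-derived growth factor that recruits pericytes, was lower (−1.37 ± 0.28, adjusted p = 0.0008), as were the pericyte genes Cspg4 and Higd1b.

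Of 17 genes of autonomic and vasoactive signalling, 3 were higher and 3 lower (17.6% each, against 10.9% and 8.72% of all genes). Without ventricular array 2, 1 was higher, and by the mean of probe sets 5 were lower. Gnao1, a G protein alpha subunit, read 1980, 1595 and 1698 against 419.2, 448.2 and 470 (1.93 ± 0.18, adjusted p = 1.1e-08), and Agtr1a, the angiotensin receptor, read 470.6, 617.9 and 414.9 against 1082, 1044 and 1331 (−1.18 ± 0.21, 0.00014). Outside the rule for named genes, and chosen after the values were seen, Plcb3 had the smallest p of any gene for E16.5 against the other 4 ages: it read 291.6, 246.2 and 386.5 in atria and 56.7, 64.3 and 53.1 in ventricles, and its difference exceeded that of the other ages by 1.72 ± 0.29 (adjusted p = 0.056).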
